A study of Homo sapiens with 6 samples.

Results

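The replication-dependent histone genes were taken as every gene of the count table whose symbol begins with HIST1H, HIST2H, HIST3H or HIST4H. This rule uses names only and found 73 of the 30017 genes listed. They fall into the 5 histone types, with 6 genes for H1, 18 for H2A, 20 for H2B, 14 for H3 and 15 for H4. By cluster, 56 are HIST1 genes on chromosome 6, 13 are HIST2 genes on chromosome 1, 3 are HIST3 genes on chromosome 1 and 1 is the HIST4 gene on chromosome 12. The libraries come from BLaER1-CTCF-mAID, a B cell leukemia subclone that carries an inducible CEBPA and can be converted into induced macrophages (iMacs). In this subclone CTCF is fused to an auxin-inducible degron, so that indole-3-acetic acid (IAA) leads to degradation of the CTCF protein, and all 6 libraries share this single subclone. The groups were 0h_control (B cell stage, without transdifferentiation factors), 96h_control (96 h after 17β-estradiol, IL-3 and CSF-1, without IAA) and 96h_CTCF_depl (96 h with the same factors and IAA), with 2 biological replicates each. IAA-treated cells without the degron were not analysed here, so that effects of IAA and of CTCF loss cannot be told apart.

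Replication-dependent histone genes encode the bulk of the histones that package newly made DNA: H3 and H4 form the tetramer at the core of the nucleosome, H2A-H2B dimers complete it, and H1 binds the linker DNA. Their transcription rises as cells enter S phase. The genes mostly lack introns, and their mRNAs end in a conserved stem-loop in place of a poly(A) tail. The stem-loop is bound by SLBP, and the pre-mRNA is cut downstream of it with the help of the U7 snRNP. When DNA replication stops, these mRNAs are rapidly degraded. The libraries were made from total RNA after removal of ribosomal RNA, so that they also hold mRNAs lacking a poly(A) tail.

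The 3′ ends of these genes are shown first because the stem-loop is the feature that sets this family apart from other mRNAs. A match to the histone 3′ stem-loop consensus (16 bases that open with GG, close with CC and hold CTT and AG on either side of the loop) was found within 120 bases after the stop codon in 70 of the 73 genes, and the 3 without one are pseudogenes with no annotated stop codon. Below, the 16 bases of the stem-loop are in capitals with 5 flanking bases on each side, read 5′ to 3′ from hg38.
HIST1H1B (capitals at chr6:27866797-27866812, minus strand): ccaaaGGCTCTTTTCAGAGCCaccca
HIST1H3B (capitals at chr6:26031597-26031612, minus strand): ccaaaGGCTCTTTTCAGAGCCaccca
HIST1H2BB (capitals at chr6:26043232-26043247, minus strand): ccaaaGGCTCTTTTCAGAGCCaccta
HIST1H2AG (capitals at chr6:27133515-27133530, plus strand): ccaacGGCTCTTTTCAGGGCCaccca
HIST1H4E (capitals at chr6:26205001-26205016, plus strand): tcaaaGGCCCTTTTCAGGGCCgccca
HIST1H4D (capitals at chr6:26188715-26188730, minus strand): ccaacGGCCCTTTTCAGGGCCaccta
HIST1H4L (capitals at chr6:27873153-27873168, minus strand): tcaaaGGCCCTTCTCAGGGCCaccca

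The stem shown for HIST1H1B and HIST1H3B was the most common form, found in 40 genes (4 H1, 13 H2A, 12 H2B and 11 H3 genes). No H4 gene had it. Instead, 10 of the 15 H4 genes had the form shown for HIST1H4E, 4 had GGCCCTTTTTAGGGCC, and HIST1H4L was the only gene with its form. HIST1H2AG was the only gene with the form shown for it.

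Promoters were then searched for 4 short motifs in the window from 250 bases before to 50 bases after each RefSeq gene start, on both strands. RefSeq (GRCh38.p14) gave a promoter for 65 of the 73 genes and 35116 promoters in all. The motifs were the TATA box TATAAA, the CCAAT box CCAAT, the octamer ATTTGCAT (the site known for OCT1) and GTCCG, a string that belongs to the H4 promoter element known to be bound by HINFP. No motif contains another. TATAAA was found in 43 of 65 histone promoters and in 11.5% of all promoters. CCAAT was found in all 52 promoters of H1, H2A, H2B and H3 genes but in 3 of 13 H4 promoters, against 34.6% of all promoters. The octamer was found in 11 of 16 H2A and 14 of 18 H2B promoters and in none of H1, H3 or H4, against 1.77% of all promoters. GTCCG was found in 12 of 13 H4 promoters, in 5 of the 52 others and in 28.9% of all promoters. Some H2A and H2B genes point away from each other, with starts so close that their windows overlap. The same match can then count for both genes. These matches are descriptions of the letters and not of binding.

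The 250 bases before the start of 4 genes are shown with these motifs in capitals on either strand. HIST1H2AC was chosen as a member of the most abundant divergent H2A-H2B pair, HIST1H4E as an abundant H4 gene, and HIST1H4D and HIST1H2BB because their levels stood apart from the rest, as described below.
HIST1H2AC (chr6:26123922-26124171, plus strand): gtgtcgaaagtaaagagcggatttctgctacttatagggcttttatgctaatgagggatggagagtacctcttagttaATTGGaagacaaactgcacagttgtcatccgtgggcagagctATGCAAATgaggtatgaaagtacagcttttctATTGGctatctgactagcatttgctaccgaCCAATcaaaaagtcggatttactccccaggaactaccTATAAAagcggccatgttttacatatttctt
HIST1H4E (chr6:26204360-26204609, plus strand): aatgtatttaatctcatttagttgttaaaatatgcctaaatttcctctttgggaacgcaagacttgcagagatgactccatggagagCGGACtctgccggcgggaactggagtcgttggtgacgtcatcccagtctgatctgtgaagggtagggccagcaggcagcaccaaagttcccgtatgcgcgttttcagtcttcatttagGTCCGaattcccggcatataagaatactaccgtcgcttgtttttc
HIST1H4D (chr6:26189113-26189362, minus strand): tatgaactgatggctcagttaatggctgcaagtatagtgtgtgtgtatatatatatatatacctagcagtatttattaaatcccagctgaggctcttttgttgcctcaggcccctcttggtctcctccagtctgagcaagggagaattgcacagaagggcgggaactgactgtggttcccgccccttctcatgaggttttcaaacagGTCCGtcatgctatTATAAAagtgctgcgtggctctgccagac
HIST1H2BB (chr6:26043714-26043963, minus strand): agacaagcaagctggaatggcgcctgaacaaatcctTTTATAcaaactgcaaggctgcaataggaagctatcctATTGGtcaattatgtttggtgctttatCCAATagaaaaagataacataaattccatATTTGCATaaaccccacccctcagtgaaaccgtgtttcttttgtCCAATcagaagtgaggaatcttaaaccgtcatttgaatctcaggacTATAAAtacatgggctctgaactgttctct

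HIST1H2AC and HIST1H2BB each showed an octamer, several CCAAT boxes and a TATA box close to the start. HIST1H4E and HIST1H4D showed GTCCG and no CCAAT box, with TATAAA in HIST1H4D only.

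Total counts ranged from 9273470 to 12718780 per library, and the spread between replicates was low, with a common biological coefficient of variation of 3.96%. Levels are given as CPM, which are counts scaled to the depth of the library, here with edgeR's TMM scaling. As a check of the labelled stages, 8 B cell markers summed to 2257 to 2278 CPM at 0 h and to 341 to 393 CPM at 96 h, and 8 macrophage markers to 35.3 to 39.2 CPM at 0 h and to 4842 to 5233 CPM at 96 h. In control iMacs all 8 B cell markers were lower and all 8 macrophage markers higher than at 0 h, and upon CTCF depletion VPREB1 and MRC1 were lower and ITGAM higher than in control. IAA acts on the CTCF protein, so that the CTCF transcript (230.3 and 213 CPM at 0 h, 181 and 173 CPM in control and 191 and 189 CPM in CTCF-depleted libraries) does not check the depletion.

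Of the 73 histone genes, 52 passed the filter on low counts (3 H1, 13 H2A, 15 H2B, 10 H3 and 11 H4 genes), and each of these had at least 10 counts in every library. The other 21 had at most 12 counts in any library, and 7 of them were at 0 in all 6 libraries (HIST3H3, HIST3H2A, HIST1H2AA, HIST1H2BA, HIST1H2APS1, HIST1H4F and HIST1H4G). A count of 0 allows up to 3 counts, or 0.225 to 0.309 CPM depending on the library. HIST3H3, HIST1H2AA, HIST1H2BA and the H1 gene HIST1H1T are known from testis. HIST1H1T had 2 to 5 counts per library, and HIST1H1D, a somatic H1 gene, had 4 to 12. The 3 HIST3 genes were not detectable at this depth apart from 1 count of HIST3H2BB. Several untested genes have an identical copy: the coding sequences of HIST2H2AA3 and HIST2H2AA4, of HIST2H3A and HIST2H3C, and of HIST2H4A and HIST2H4B are the same at 100% of bases, and each had at most 3 counts per library. How reads that match more than 1 gene were counted is not given in the sources used here, so that the levels of such copies are uncertain. HIST1H4J and HIST1H4K, which were tested, also share 1 coding sequence. For the remaining genes with a coding sequence of the same length in their type, the closest other gene was at least 83.5% identical.

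Histone mRNA levels were lower at 96 h than at 0 h, and lower again upon CTCF depletion. Summed over all 73 genes, the level was 13281 and 13003 CPM at 0 h, 7586 and 7928 CPM in control and 4236 and 4021 CPM in CTCF-depleted libraries. The control libraries at 96 h thus had 59.0% of the 0 h level and the CTCF-depleted libraries 31.4%, or 53.2% of control. No library of one group overlapped another. These values are relative to all other RNA in a bulk sample, in which fewer cells in S phase and less histone mRNA per cell cannot be told apart.

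**Figure D1:**
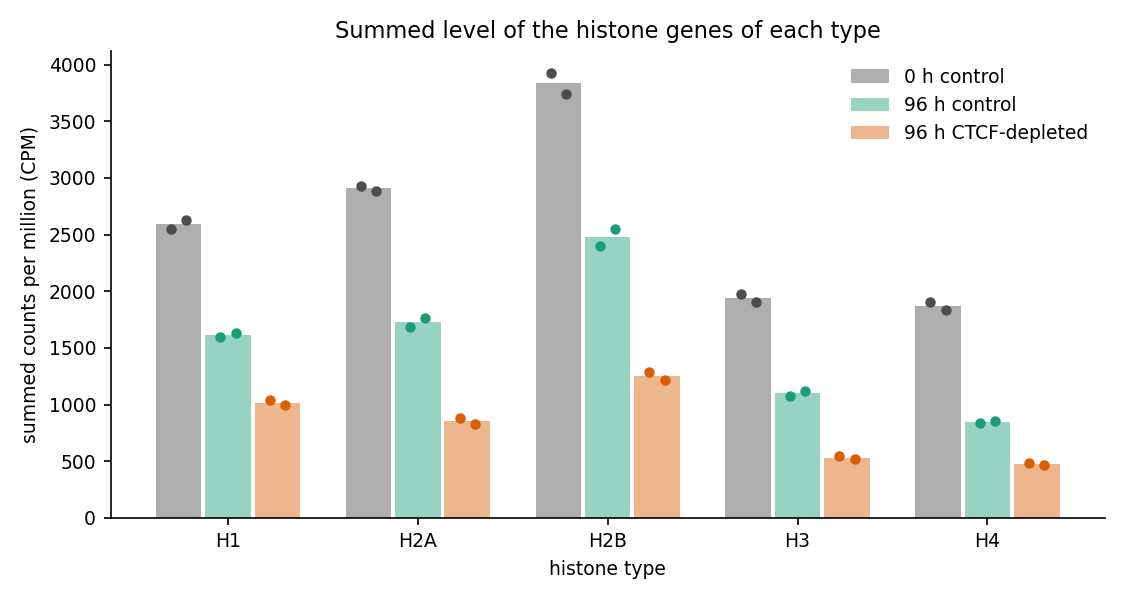
Summed CPM of the histone genes of each type in each library. Bars are the means of 2 libraries and points are the libraries; within each of the 5 types the points order as 0 h control, 96 h control and 96 h CTCF-depleted from highest to lowest, without overlap.

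Each histone type followed this order, to different extents. H3 genes summed to 1972 and 1908 CPM at 0 h, 1072 and 1123 CPM in control and 544 and 517 CPM in CTCF-depleted libraries. H4 genes summed to 1906 and 1838 CPM at 0 h, 833 and 857 CPM in control and 480.1 and 462 CPM in CTCF-depleted libraries. H4 mRNAs were thus at 45.1% of the 0 h level in control iMacs, the lowest share of the 5 types, and H3 mRNAs at 56.6%. H2A genes summed to 2929 and 2884 CPM at 0 h, 1684 and 1768 CPM in control and 884 and 830.0 CPM in CTCF-depleted libraries. H2B genes, the most abundant type by summed CPM, summed to 3926 and 3741 CPM at 0 h, 2397 and 2552 CPM in control and 1288 and 1219.9 CPM in CTCF-depleted libraries. Control iMacs kept 59.4% of the 0 h level of H2A mRNA and 64.6% of H2B mRNA. H1 genes summed to 2549 and 2633 CPM at 0 h, 1599 and 1628 CPM in control and 1041 and 992 CPM in CTCF-depleted libraries, which is 62.3% of the 0 h level in control iMacs and 39.2% in CTCF-depleted iMacs. Upon CTCF depletion, H2A, H2B and H3 were at 49.6%, 50.7% and 48.3% of control, H4 at 55.8% and H1 at 63.0%. The share of H1 among all histone CPM was 19.7% ± 0.75 (SD, n = 2) at 0 h, 20.8% ± 0.38 in control and 24.6% ± 0.068 in CTCF-depleted iMacs, while that of H4 was 14.2%, 10.9% and 11.4%. The tested H1 genes were not alike upon depletion. By their log2 fold changes, HIST1H1E was at 78.5% of control, HIST1H1C at 59.6% and HIST1H1B at 53.4%. Differences between types were not tested.

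The transition from B cells to control iMacs was tested with edgeR's quasi-likelihood model over all 14758 genes tested, and a gene was called where the adjusted p (Benjamini-Hochberg) was below 0.01 and the log2 fold change exceeded 0.6 in either direction. In control iMacs, 35 of the 52 tested histone genes were lower than at 0 h and 1 was higher, whereas 22.9% of all genes tested were called lower and 25.4% higher. The median log2 fold change of the 52 genes was -0.73, against 0.02 over all genes tested. In 46 genes both 96 h libraries were below both 0 h libraries, a pattern found in 42.8% of all genes tested, and in 4 they were above (43.9% of all genes). The fold threshold lay inside the bulk of the histone genes: 11 further genes were lower or higher at an adjusted p below 0.01 but with a smaller change, HIST1H1C lay just inside at -0.61 and HIST1H1E just outside at -0.59.

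Levels across genes were compared per kilobase of merged exons, as the mean over 6 libraries. Merged exons include further annotated transcripts of some genes. HIST1H2BC, for example, has 2881 merged bases but a main transcript of 460 bases. The order of genes thus depends on the length used. The highest were HIST1H1B at 908 CPM per kb, HIST1H1E at 707, HIST1H3B at 668, HIST1H4E at 663 and HIST1H1C at 628 CPM per kb. The lowest tested gene was HIST1H3E at 1.79 CPM per kb. HIST1H3B and HIST1H4E were so close that their order differed between groups, and genes of other types were not tested against each other. By group, HIST1H1B was at 1447 CPM per kb at 0 h and 444 in CTCF-depleted libraries, and HIST1H1E at 972 and 506, so that HIST1H1E was the higher of these H1 genes upon depletion.

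Among H3 genes, HIST1H3B was the most abundant. It had 527 and 519.6 CPM at 0 h, 343 and 337 CPM in control and 165 and 158 CPM in CTCF-depleted libraries. It fell in control iMacs (log2 fold change -0.62, SE 0.04, adjusted p = 9.41e-19) and fell again upon CTCF depletion relative to control (log2 fold change -1.08, SE 0.05, adjusted p = 5.93e-26). HIST1H3I had 350.4 and 332 CPM at 0 h, 162 and 183 CPM in control and 79.8 and 79.8 CPM in CTCF-depleted libraries. HIST1H3G had 280.2 and 264 CPM at 0 h, 131 and 139 CPM in control and 55.9 and 50.8 CPM in CTCF-depleted libraries. HIST1H3G showed the larger decline: it fell by 1.01 on the log2 scale in control iMacs and by a further 1.34 upon depletion. In the 3 genes, the libraries of the groups did not overlap. HIST1H3E stood apart at low levels: it had 10.1 and 8.24 CPM at 0 h, 2.82 and 1.85 CPM in control and 2.87 and 2.94 CPM in CTCF-depleted libraries, so that it fell in control iMacs (log2 fold change -1.95, SE 0.24, adjusted p = 2.38e-10) while its value upon CTCF depletion (log2 fold change 0.31, SE 0.30, adjusted p = 0.457) did not pass the test. Of the 10 H3 genes tested, 7 were lower in control iMacs and 9 were lower upon depletion, beside 22.9% and 7.03% of all genes tested.

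HIST1H3C, a further H3 gene and named here after its values were seen, went against the direction of its type in control iMacs. It had 35.8 and 33.8 CPM at 0 h, 45.8 and 45.7 CPM in control and 23.7 and 25.9 CPM in CTCF-depleted libraries. The control libraries were above and the depleted libraries below the 0 h libraries. The change in control (log2 fold change 0.40, SE 0.08, adjusted p = 2.25e-05) was below the fold threshold, and depletion lowered it relative to control (log2 fold change -0.88, SE 0.09, adjusted p = 1.52e-12).

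H4 genes fell most in control iMacs by the median, at -1.10, with 10 of 11 called lower, beside 22.9% of all genes tested. HIST1H4E had 453 and 446 CPM at 0 h, 231 and 239 CPM in control and 137 and 133 CPM in CTCF-depleted libraries. It fell in control iMacs (log2 fold change -0.93, SE 0.05, adjusted p = 5.74e-26) and again upon depletion (log2 fold change -0.80, SE 0.05, adjusted p = 4.52e-20). HIST1H4C had 245 and 246 CPM at 0 h, 114 and 114 CPM in control and 73.2 and 72.4 CPM in CTCF-depleted libraries. HIST1H4H had 331 and 319 CPM at 0 h, 145 and 151 CPM in control and 78.3 and 74.1 CPM in CTCF-depleted libraries. Both fell in each of these comparisons, without overlap between libraries. HIST1H4L, the gene with a stem-loop form of its own, had 245 and 244 CPM at 0 h, 98.6 and 93.0 CPM in control and 53.7 and 55.1 CPM in CTCF-depleted libraries and fell by 1.35 in control and by a further 0.82 upon depletion on the log2 scale.

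HIST1H4D had the largest decline of any tested histone gene in control iMacs. It had 126 and 116 CPM at 0 h, 17.5 and 19.5 CPM in control and 16.7 and 16.5 CPM in CTCF-depleted libraries. The control libraries thus held 15.3% of the 0 h level (log2 fold change -2.71, SE 0.09, adjusted p = 2.84e-35), and the depleted libraries were close to them (log2 fold change -0.16, SE 0.11, adjusted p = 0.279, which did not pass the test). The gene (chr6:26188710-26189112) has HIST1H2BD and HIST1H3D as its nearest tested neighbours, and both of these fell upon depletion. HIST4H4, the only gene of its cluster, had a similar pattern at a lower level. It had 12.1 and 16.0 CPM at 0 h, 5.64 and 6.20 CPM in control and 6.47 and 6.07 CPM in CTCF-depleted libraries. It fell in control iMacs (log2 fold change -1.26, SE 0.18, adjusted p = 5.69e-09), and the control and depleted libraries overlapped (log2 fold change 0.08, SE 0.20, adjusted p = 0.784). The identical copies HIST1H4J and HIST1H4K, at 4.60 to 14.9 CPM, had log2 fold changes upon depletion of -0.50 and -0.91, of which only the second passed the test. HIST1H4I, the H4 gene with the largest change upon depletion (-1.29 ± 0.08), lies inside the RefSeq span of HIST1H2BK, and the strand setting of the counting is not given in the sources used here.

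**Figure D2:**
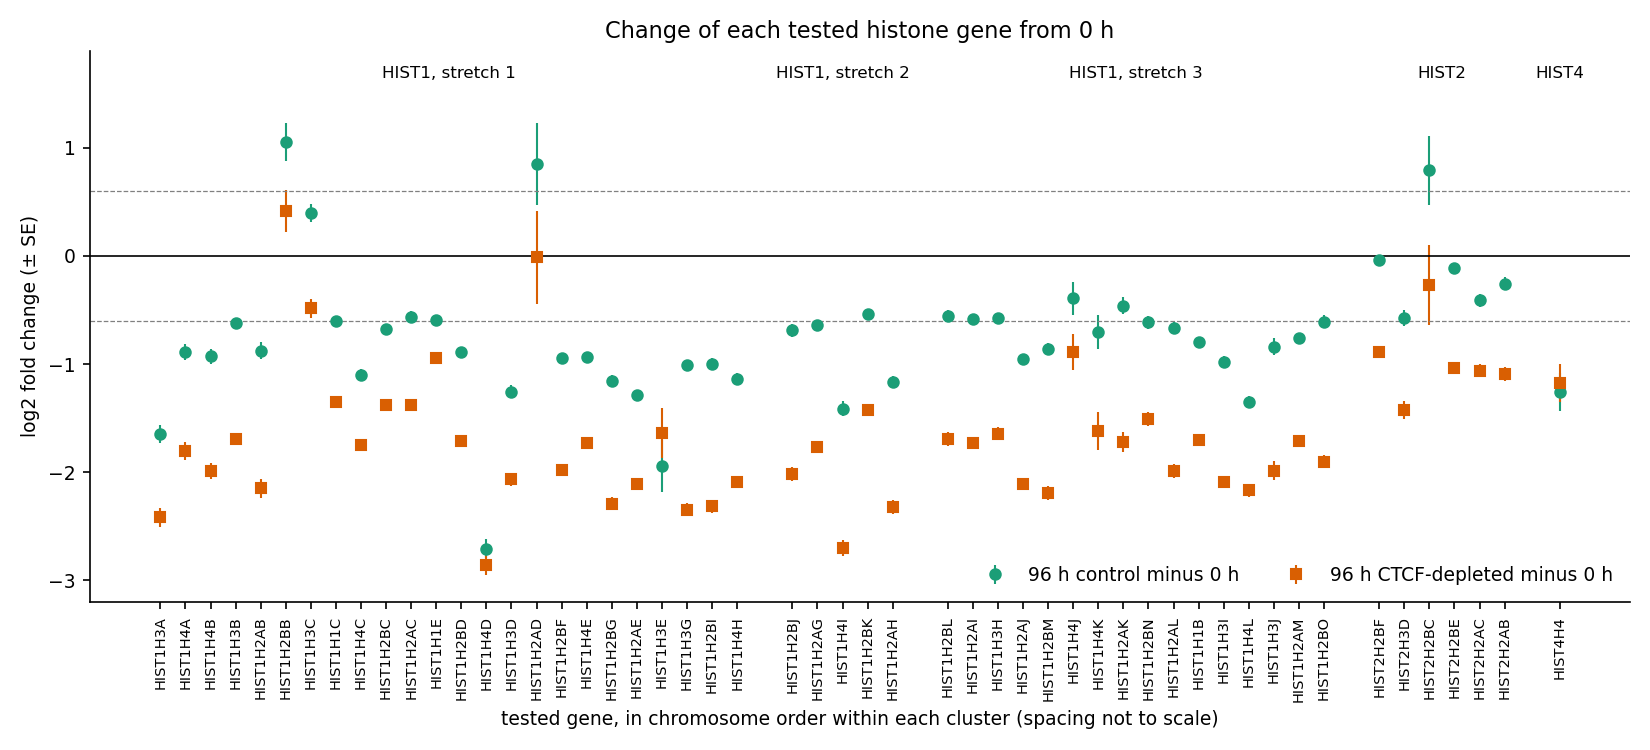
Log2 fold change (± SE) of the 52 tested histone genes from 0 h to 96 h in control (circles) and CTCF-depleted cells (squares), in chromosome order within each cluster, with the fold threshold of 0.6 dashed. Both series use the same 0 h libraries; the squares lie below the circles in 50 of 52 genes, and HIST1H2BB, HIST1H3C, HIST1H2AD and HIST2H2BC are the genes with a circle above 0.

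H2A and H2B genes lie largely in divergent pairs, in which an H2A and an H2B gene point away from a shared promoter. There were 13 such pairs with 194 to 289 bases between the starts. Both genes were tested in 10 of them. The most abundant was HIST1H2AC-HIST1H2BC, with 246 bases between the starts (chr6:26123926-26124172), which is the region shown above for HIST1H2AC. HIST1H2AC had 264 and 254 CPM at 0 h, 167 and 184 CPM in control and 102 and 96.1 CPM in CTCF-depleted libraries. HIST1H2BC had 435 and 429 CPM at 0 h, 261 and 282 CPM in control and 164 and 168 CPM in CTCF-depleted libraries. The log2 fold changes from 0 h were -0.56 and -0.67 in control and -1.38 and -1.38 in CTCF-depleted iMacs, so that the partners changed to a similar extent. Over the 10 pairs, the absolute difference in log2 fold change between partners had a median of 0.14 in control against 0 h and 0.24 in depleted against control.

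Upon depletion relative to control, the largest differences between partners were 0.37 (HIST1H2AK-HIST1H2BN) and 0.34 (HIST1H2AM-HIST1H2BO). H2A and H2B genes of different pairs were not compared, so that likeness of partners was not tested. The pairs below were unequal in control against 0 h. HIST1H2AH fell in control iMacs by a log2 fold change of -1.17, while its partner HIST1H2BK had -0.54, below the fold threshold. HIST1H2BK, which had 434 and 429 CPM at 0 h, 288 and 307 CPM in control and 167 and 155 CPM in CTCF-depleted libraries, is known to give polyadenylated transcripts as well. The most unequal pair was HIST1H2AD-HIST1H2BF, at 0.85 and -0.94 in control, but HIST1H2AD had 11 to 35 counts per library, lies inside the RefSeq span of HIST1H3D and did not pass the test in any comparison.

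Among single H2A genes, HIST1H2AG was the most abundant per kb. It had 408 and 408 CPM at 0 h, 252 and 271 CPM in control and 122 and 118 CPM in CTCF-depleted libraries. It fell in both steps (log2 fold change -0.64, SE 0.05, adjusted p = 1.61e-18 in control; log2 fold change -1.13, SE 0.05, adjusted p = 9.53e-26 upon depletion). HIST1H2AE had 393 and 388 CPM at 0 h, 159.8 and 159 CPM in control and 98.2 and 82.8 CPM in CTCF-depleted libraries and fell by 1.29 in control and by a further 0.82 upon depletion on the log2 scale. HIST1H2AI had 303 and 313 CPM at 0 h, 201 and 210.5 CPM in control and 94.5 and 91.6 CPM in CTCF-depleted libraries, with a smaller first change (-0.58, below the fold threshold) and a larger second one (-1.14). HIST1H2AJ and HIST1H2AM fell in both steps. Of the 13 H2A genes tested, 7 were lower in control iMacs and 12 upon depletion relative to control, beside 22.9% and 7.03% of all genes tested.

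HIST1H2BB was the only histone gene called higher in control iMacs. It had 5.77 and 5.54 CPM at 0 h, 11.1 and 12.4 CPM in control and 7.58 and 7.45 CPM in CTCF-depleted libraries, with 56 to 134 counts per library. The control libraries were the highest and the 0 h libraries the lowest, without overlap. The increase in control (log2 fold change 1.06, SE 0.18, adjusted p = 5.13e-07) corresponded to 208% of the 0 h level. Upon depletion it was lower than in control (log2 fold change -0.64, SE 0.17, adjusted p = 0.00186), and this call was lost with DESeq2 (log2 fold change -0.63) and without any 1 of the 4 libraries at 96 h (-0.53 to -0.69). Its promoter and stem-loop, shown above, held letters also found in other H2B genes. HIST1H2BD had 428 and 402 CPM at 0 h, 220.3 and 227 CPM in control and 130.1 and 124 CPM in CTCF-depleted libraries. HIST1H2BJ had 213 and 190.4 CPM at 0 h, 128 and 122 CPM in control and 48.1 and 51.2 CPM in CTCF-depleted libraries. Both fell in control and fell again upon depletion, by 0.82 and 1.33 on the log2 scale. All 15 H2B genes tested were called lower upon CTCF depletion, beside 7.03% of all genes tested. The calls of HIST1H2BB and HIST2H2BC among them were lost with DESeq2.

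Of the 3 tested H1 genes, HIST1H1B and HIST1H1C were called lower in both steps, beside 22.9% and 7.03% of all genes tested. HIST1H1B, a linker histone of dividing cells, had 1128 and 1178 CPM at 0 h, 662 and 664 CPM in control and 355 and 353 CPM in CTCF-depleted libraries. It fell in control (log2 fold change -0.80, SE 0.04, adjusted p = 1.49e-23) and upon depletion (log2 fold change -0.90, SE 0.05, adjusted p = 9.5e-24). HIST1H1C had 665 and 679 CPM at 0 h, 439.7 and 444 CPM in control and 272 and 255 CPM in CTCF-depleted libraries and changed by -0.61 and -0.75 on the log2 scale. HIST1H1E had 755 and 774 CPM at 0 h, 496 and 519 CPM in control and 413 and 384 CPM in CTCF-depleted libraries. Its change upon depletion (log2 fold change -0.35, SE 0.05, adjusted p = 9.92e-09) was below the fold threshold although the groups did not overlap.

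By cluster, none of the 6 tested HIST2 genes was called in control iMacs against 0 h with edgeR (median log2 fold change -0.18) or with DESeq2. With edgeR, 4 of them were lower and 1 higher at an unadjusted p below 0.05. Of the 45 HIST1 genes, 34 were called lower and 1 higher (median -0.84). Over all genes tested, 22.9% were called lower and 25.4% higher. With only 6 genes, 0 called lower is not far from the first of these shares. HIST2H2BE had 350.3 and 313 CPM at 0 h, 296 and 318 CPM in control and 171 and 152 CPM in CTCF-depleted libraries, so that the 0 h and control libraries overlapped (log2 fold change -0.11, SE 0.05, adjusted p = 0.0443), and it fell upon depletion (log2 fold change -0.92, SE 0.05, adjusted p = 2.86e-21). HIST2H2BF, named after its values were seen, had 260.5 and 260.5 CPM at 0 h, 245 and 262 CPM in control and 140.3 and 140.2 CPM in CTCF-depleted libraries, again with overlap of 0 h and control (log2 fold change -0.04, SE 0.05, adjusted p = 0.449) and with a decline upon depletion (log2 fold change -0.85, SE 0.05, adjusted p = 3.24e-21). HIST2H2AC and HIST2H2AB changed by -0.41 and -0.26 and HIST2H3D by -0.58 in control, each at an adjusted p below 0.01 but below the fold threshold. HIST2H3D was called lower in this comparison with scaling by the upper quartile (-0.69) or by total counts (-0.70), with no filter on low counts (-0.62), without replicate 2 of 0 h (-0.65) and without replicate 1 of control (-0.63). All 6 HIST2 genes were lower upon depletion (median -0.85), as were 40 of 45 HIST1 genes (median -0.95), beside 7.03% of all genes tested. The sixth, the pseudogene HIST2H2BC, rests on 15 to 43 counts per library, and its call upon depletion was lost with DESeq2, with scaling by the upper quartile or total counts, with the replicate block and without any 1 of the 4 libraries at 96 h. Without replicate 2 of the CTCF-depleted libraries, HIST2H2AC was not called either.

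Levels of the clusters within 1 histone type were set side by side. HIST2 H2B genes summed to 613 and 576 CPM at 0 h, 544 and 583 CPM in control and 314 and 294 CPM in CTCF-depleted libraries, so that control iMacs had 94.8% of the 0 h level, against 59.0% for the H2B genes of HIST1. For H2A the values were 78.8% in HIST2 and 57.2% in HIST1, and for H3 they were 66.8% and 56.1%. The HIST2 values rest on few tested genes, 3 for H2B, 2 for H2A and HIST2H3D alone for H3, against 12, 11 and 9 in HIST1. In CTCF-depleted iMacs relative to control, H2B genes of HIST2 and HIST1 were at 53.9% and 49.7%, H2A genes at 60.3% and 48.0% and H3 genes at 55.7% and 48.0%. The share of HIST2 among all histone CPM was 7.37% at 0 h, 10.9% in control and 11.5% in CTCF-depleted iMacs. The levels of the identical HIST2 copies named above are uncertain, and so are this share and the HIST2 sums of H2A and H3. The difference between clusters was not tested, since the genes of a cluster are not replicates.

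**Figure D3:**
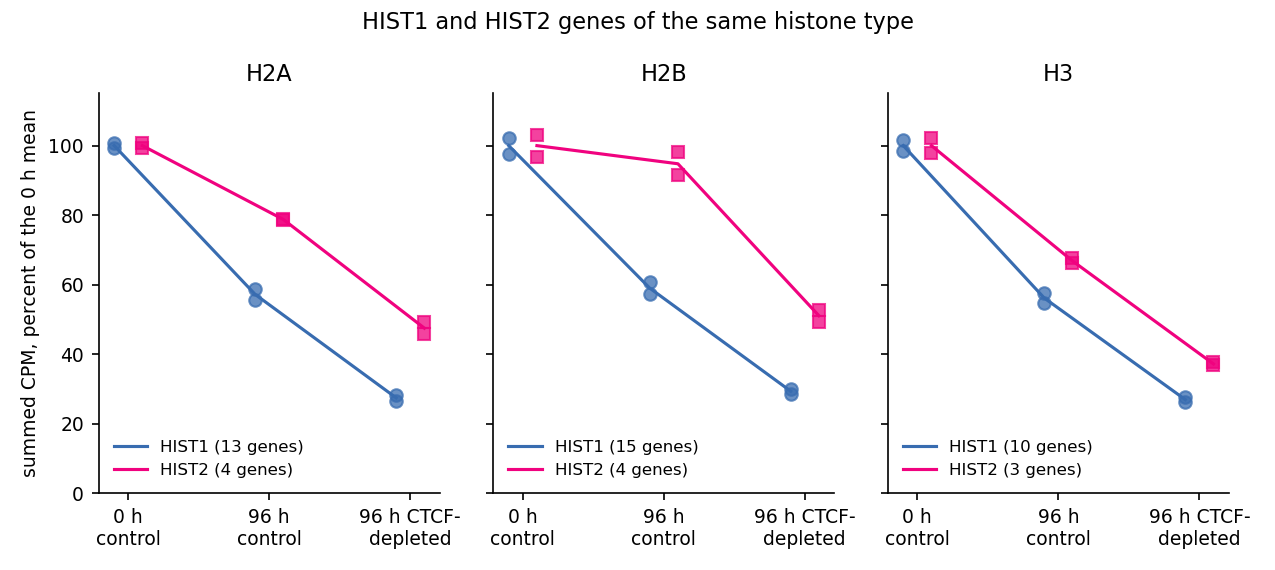
Summed CPM of the HIST1 (circles) and HIST2 (squares) genes of types H2A, H2B and H3 in each library, as a percentage of the mean of the 0 h libraries; lines join group means. At 96 h, H2B genes of HIST2 stood at 94.8% in control iMacs against 59.0% for those of HIST1, and at 51.1% against 29.3% upon CTCF depletion.

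HIST1 itself consists of 3 stretches on chromosome 6 that are separated by more than 500000 bases. The first (chr6:25726063-26285534) holds 35 genes, of which 24 were tested, the second (chr6:27132316-27147562) 5 genes and the third (chr6:27807479-27893891) 16 genes, all tested. In control iMacs they had 55.2%, 58.8% and 58.5% of the 0 h level by summed CPM. Upon CTCF depletion they had 57.4%, 47.3% and 48.2% of the control level. The genes lower were 20 of 24, 5 of 5 and 15 of 16, beside 7.03% of all genes tested. The median log2 fold changes upon depletion were -0.82, -1.16 and -1.13. No test by position was made.

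Upon CTCF depletion, most histone genes declined relative to control at 96 h. Of the 52 tested, 46 were lower and 0 higher (edgeR; 0 higher at an unadjusted p below 0.05, and 0 with DESeq2, which called 44 lower), whereas 7.03% of all genes tested were called lower and 5.41% higher. The median log2 fold change was -0.91, against -0.03 over all genes tested, and the changes ranged from -1.34 to 0.31. Both depleted libraries were below both control libraries in 50 genes, a pattern found in 37.8% of all genes tested, and above them in HIST1H3E only (30.1% of all genes). The 6 genes not called were HIST1H1E, HIST1H2AD, HIST1H3E, HIST1H4D, HIST1H4J and HIST4H4, of which HIST1H2AD, HIST1H3E, HIST1H4J and HIST4H4 were below 20 CPM in every library. HIST1H2BB lay just inside the fold threshold at -0.64. HIST1H1E, at -0.35, was the only gene with an adjusted p below 0.01 that did not reach the fold threshold.

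**Figure D4:**
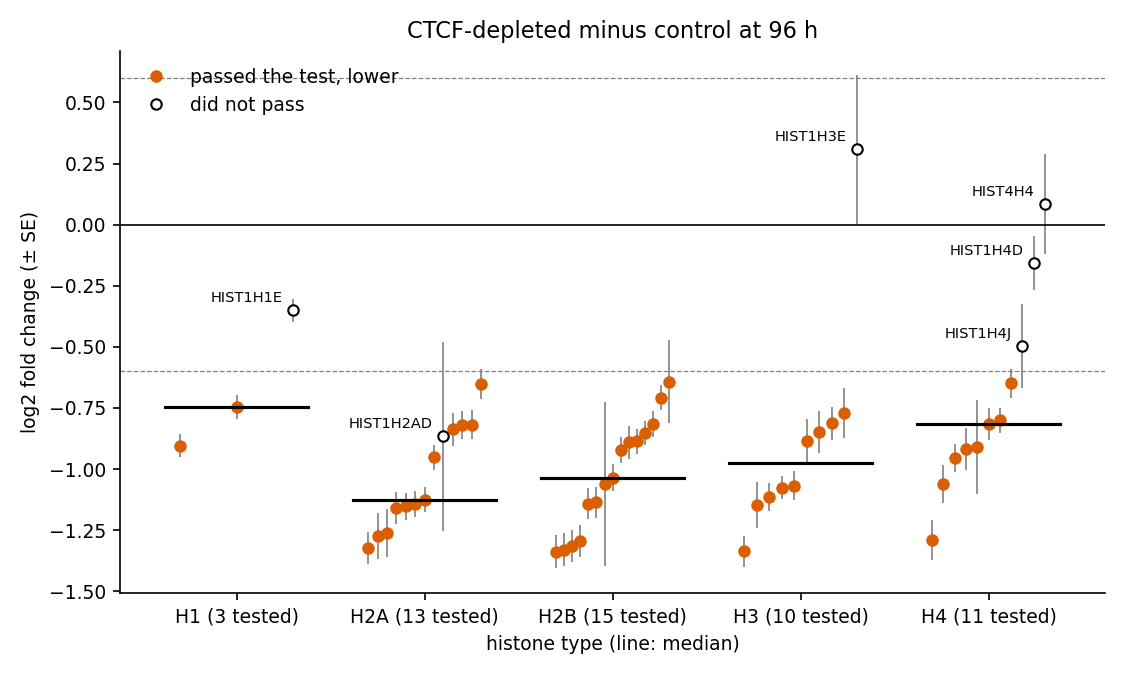
Log2 fold change (± SE) of each tested histone gene in CTCF-depleted relative to control cells at 96 h, by type, with medians as black lines and the fold threshold of 0.6 dashed. Filled points are the 46 genes that passed the test; the 6 open points are named, and the medians lie between -0.75 for H1 and -1.13 for H2A.

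In CTCF-depleted iMacs against 0 h, 48 of the 52 genes were lower and 0 higher (edgeR; 1 higher at an unadjusted p below 0.05, and 0 with DESeq2), against 25.2% of all genes tested called lower and 27.2% called higher. The median was -1.72, against 0.02 over all genes tested. Both depleted libraries were below both 0 h libraries in 49 genes and above them in 1, against 43.1% and 44.6% of all genes tested. This comparison shares libraries with both others. The smallest adjusted p was that of HIST1H2AJ (log2 fold change -2.11, SE 0.05, adjusted p = 7.85e-40), which had 326 and 315 CPM at 0 h, 161 and 169 CPM in control and 75.3 and 73.2 CPM in CTCF-depleted libraries. The 4 genes not called were HIST1H2BB, HIST1H3C, HIST1H2AD and HIST2H2BC.

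Of the tested genes, 8 are known to give polyadenylated transcripts in addition to the stem-loop form (HIST1H1C, HIST1H2AC, HIST1H2BC, HIST1H2BD, HIST1H2BJ, HIST1H2BK, HIST2H2BE and HIST4H4). Of these, 5 were lower in control iMacs and 7 upon depletion (medians -0.64 and -0.82), beside 22.9% and 7.03% of all genes tested. The other 44 had 30 lower and 1 higher in control and 39 lower upon depletion, with medians of -0.82 and -0.95. The summed level of the 8 was 66.9% of 0 h in control, against 56.9% for the rest, and 56.0% of control upon depletion, against 52.4%. The counts do not separate the forms of a transcript.

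Genes that act in S phase were set beside the histone genes. Of 16 S phase genes, 15 were lower in control iMacs, with a median of -1.30, beside 22.9% of all genes tested called lower. Upon CTCF depletion 7 of the 16 were lower, with a median of -0.58, beside 7.03% of all genes tested. The other 9 were not called, among them PCNA (-0.45), MCM3 (-0.40) and TYMS (-0.24). The summed level of this list was 4278 and 4107 CPM at 0 h, 1614 and 1584 CPM in control and 1087 and 1071 CPM in depleted libraries. MCM2 (log2 fold change -0.74, SE 0.07, adjusted p = 5.64e-14) and MCM7 (log2 fold change -0.68, SE 0.05, adjusted p = 7.19e-17), subunits of the replicative helicase, CDC45 (log2 fold change -0.88, SE 0.11, adjusted p = 1.7e-09) and GINS2 (log2 fold change -0.72, SE 0.15, adjusted p = 0.000122), which join it at forks, POLA1 (log2 fold change -0.70, SE 0.07, adjusted p = 7.4e-12), a subunit of the polymerase alpha-primase complex, CDT1 (log2 fold change -0.68, SE 0.09, adjusted p = 6.38e-09), a licensing factor, and UHRF1 (log2 fold change -1.002, SE 0.06, adjusted p = 3.24e-21), which reads hemimethylated DNA, were the genes lower upon depletion. The S phase list had the lower median in control iMacs and the histone genes the lower median upon depletion. The part of cell cycle in the histone values was not tested.

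Of 12 regulators of histone transcription, 4 were lower in control iMacs and 2 upon depletion, with medians of -0.44 and -0.23, beside 22.9% and 7.03% of all genes tested called lower. CCNA2 (log2 fold change -0.85, SE 0.08, adjusted p = 3.4e-13), a cyclin of S phase, and E2F1 (log2 fold change -0.68, SE 0.10, adjusted p = 6.71e-08), a transcription factor of S phase entry, were those lower upon depletion. The coactivator of histone genes, NPAT, had 96.5 and 89.2 CPM at 0 h, 84.1 and 81.2 CPM in control and 73.8 and 80.2 CPM in CTCF-depleted libraries, a change upon depletion of log2 fold change -0.10, SE 0.07, adjusted p = 0.262. HINFP, which binds H4 promoters, had 10.7 and 11.7 CPM at 0 h, 14.6 and 16.5 CPM in control and 12.1 and 9.66 CPM in CTCF-depleted libraries, and its change of -0.51 was below the fold threshold.

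Among 15 genes of histone mRNA 3′ processing and decay, 6 were lower and 1 higher in control iMacs. Upon depletion 1 was lower and 1 higher, with a median of -0.21. Over all genes tested, 22.9% were called lower and 25.4% higher in control iMacs, and 7.03% and 5.41% upon depletion. The counts of this list upon depletion are near those shares. SLBP, which binds the stem-loop, had 129 and 130.4 CPM at 0 h, 73.1 and 66.9 CPM in control and 59.7 and 58.7 CPM in CTCF-depleted libraries. It fell in control (log2 fold change -0.89, SE 0.07, adjusted p = 6.72e-18) and changed by -0.24 upon depletion. LSM11, a subunit of the U7 snRNP, had 9.17 and 8.77 CPM at 0 h, 3.88 and 2.96 CPM in control and 7.31 and 8.19 CPM in CTCF-depleted libraries and was higher upon depletion (log2 fold change 1.17, SE 0.22, adjusted p = 1.52e-05). MIF4GD, known as a translation factor that binds SLBP, had 9.27 and 8.47 CPM at 0 h, 7.93 and 7.40 CPM in control and 2.87 and 3.31 CPM in CTCF-depleted libraries and was lower upon depletion (log2 fold change -1.31, SE 0.22, adjusted p = 2.89e-06). ZCCHC6, a uridylyltransferase of histone mRNA decay, had 50.7 and 50.9 CPM at 0 h, 206 and 213 CPM in control and 162 and 157 CPM in CTCF-depleted libraries, which was higher in control than at 0 h (log2 fold change 2.04, SE 0.06, adjusted p = 9.8e-37) and below the fold threshold upon depletion (log2 fold change -0.39, SE 0.05, adjusted p = 1.79e-08).

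Histone variants outside the HIST1 to HIST4 names, most of them known as replication-independent, were compared as a counterpart. Of 12 genes, 9 were tested. In control iMacs 5 were lower (median -0.73), and upon depletion 2 were lower (median -0.27), beside 22.9% and 7.03% of all genes tested. H2AFY2 (macroH2A2) had 65.7 and 65.8 CPM at 0 h, 28.4 and 24.1 CPM in control and 10.5 and 10.3 CPM in CTCF-depleted libraries. CENPA, the centromeric H3 variant, had 33.9 and 31.0 CPM at 0 h, 19.0 and 20.1 CPM in control and 11.9 and 11.2 CPM in CTCF-depleted libraries. Both fell upon depletion (log2 fold change -1.34, SE 0.11, adjusted p = 9.46e-15 and log2 fold change -0.75, SE 0.13, adjusted p = 2.04e-06). H3F3A and H3F3B encode the same H3 variant, H3.3. H3F3A had 24.6 and 22.9 CPM at 0 h, 14.02 and 13.3 CPM in control and 12.9 and 13.2 CPM in CTCF-depleted libraries. It fell in control iMacs (log2 fold change -0.79, SE 0.12, adjusted p = 8.92e-08), and its change upon depletion (log2 fold change -0.07, SE 0.14, adjusted p = 0.721) did not pass the test. H3F3B had 328 and 334 CPM at 0 h, 401 and 399 CPM in control and 380.2 and 357 CPM in CTCF-depleted libraries. The control libraries were above the 0 h libraries, with a change below the fold threshold (log2 fold change 0.27, SE 0.05, adjusted p = 5.31e-07), and its change upon depletion (log2 fold change -0.12, SE 0.05, adjusted p = 0.038) did not pass the test. Beside 22.9% and 7.03% of all genes tested, 6 of 15 histone chaperones were lower in control and 4 upon depletion (median -0.34). These were CHAF1A (log2 fold change -0.62, SE 0.07, adjusted p = 1.15e-10) and CHAF1B (log2 fold change -0.63, SE 0.13, adjusted p = 8.83e-05), subunits of the chaperone that places H3-H4 on new DNA, ASF1A (log2 fold change -1.13, SE 0.11, adjusted p = 3.62e-13), which hands on H3-H4, and HJURP (log2 fold change -0.88, SE 0.08, adjusted p = 1.14e-13), which loads CENPA.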

How the data were processed

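RNA-seq libraries were made from total RNA with a stranded kit after ribosomal RNA depletion, with 3 groups of 2 libraries as labelled. Per the labels and methods, the authors ran nf-core/rnaseq, with STAR 2.6.1d for alignment against hg38 and featureCounts 2.0.6 for counting per gene. The deposited values are raw counts by gene symbol. The annotation release, the strand setting and the treatment of multi-mapped reads are not given in the sources used here. Alignment and counting were not repeated.

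Tests were run with edgeR 4.0.16 in R 4.3.3 (filterByExpr, TMM, a quasi-likelihood fit of all 6 libraries with condition as the only term, Benjamini-Hochberg over 14758 genes). The call required an adjusted p below 0.01 and a log2 fold change beyond 0.6 in either direction. These are thresholds of the study's methods, which used DESeq2. Standard errors came from the log2 fold change and its F statistic, and a prior count of 2 was used for log2 CPM. A simulation of CTCF-depleted against control libraries with 200 of 14758 genes changed gave 195 recovered genes and 1 false call with edgeR. With DESeq2 1.42.0 these numbers were 186 and 0. The changed genes were drawn only from genes above a minimum mean count, and each was changed by more than the fold threshold. Recovery was not split by size of change or by count. Recovery at low counts and close to the fold threshold of 0.6 was not tested. With 2 libraries against 2, a permutation test of a single value cannot go below p = 0.333, so that none was made. Reads carry no molecular identifiers, so that the limit given for a count of 0 covers counting error only.

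Older histone symbols were matched to RefSeq by synonym (73 of 73) and to GENCODE release 44 for exons. Sequences were read from hg38 and from RefSeq promoters (GRCh38.p14). Replicates differed by more than sampling noise (chi-square per degree of freedom 1.71 to 2.69). The members, gene lists and comparisons were chosen with earlier results of these data known. Histone genes were named if they were among the 3 most abundant of their type, among the 4 called genes with the smallest adjusted p in a comparison and direction with groups that do not overlap, called against the majority, in HIST3 or HIST4, known to be polyadenylated too, or in the divergent pair whose promoter is printed. Genes of other lists were named if called upon CTCF depletion, or otherwise if among the 2 most abundant of their list. Further genes were named after their values were seen. The alternatives were DESeq2, other scalings, other filters, other thresholds, a fit restricted to the 4 libraries of a comparison, a block for the replicate number and leaving out each library in turn.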

Additional observations from a re-analysis of the deposited data

How the results depend on the processing

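Under the alternatives run, histone genes called lower outnumbered those called higher in each comparison. No histone gene named by the rule given above changed direction. Genes named after their values were seen were not part of this check. Among them HIST1H2AD lay close to 0 in CTCF-depleted against 0 h (log2 fold change -0.01, SE 0.43), so that its direction there is not settled. A log2 fold threshold of 1 left 14 genes lower in control against 0 h and 22 lower in CTCF-depleted against control. With an adjusted p below 0.05 and no fold threshold, 4 genes were higher in control against 0 h and 1 in CTCF-depleted against 0 h. Shares over all genes tested were not computed at these other thresholds, so that these counts have no such reference. Without 1 library at a time, the genes lower numbered 34 to 41 in control against 0 h, 48 in CTCF-depleted against 0 h and 43 to 44 in CTCF-depleted against control. The replicate numbers did not pair the samples (correlations of replicate differences across genes between -0.03 and 0.01); the replicate block gave 35, 48 and 45 genes lower in these comparisons.

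Scaling by total counts or the upper quartile moved the median of all genes in control against 0 h by -0.12 on the log2 scale and gave 42 histone genes lower, while 48, 51 and 50 of the 52 genes had a log2 fold change below 0 under every scaling. The 7 genes gained under both of these scalings were HIST1H1E, HIST1H2AC, HIST1H2AI, HIST1H2BK, HIST1H2BL, HIST1H3H and HIST2H3D. HIST1H1C, just inside the fold threshold in that comparison, was just outside it with at least 10 counts required in every library and with only the 4 libraries compared. Among single histone genes named by the rule, 983 results kept their side of the threshold, 34 passed it and 33 no longer passed it. At this depth, the 21 untested genes cannot be compared between groups.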

Other observations

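H2A and H2B genes can be divided by the octamer in their promoters. Of the genes of these types with a promoter sequence, 21 tested genes had the octamer and 5 had not. Divergent partners have overlapping promoter windows, so that these genes are not all separate promoters. The 5 include both partners of HIST1H2AI-HIST1H2BL and of HIST1H2AK-HIST1H2BN. In control against 0 h, 13 of the 21 were lower and 1 higher (median log2 fold change -0.67), and 2 of the 5 were lower (median -0.58). Upon CTCF depletion 20 of 21 and 5 of 5 were lower than in control, with medians of -0.95 and -1.14. Over all genes tested, 22.9% were called lower in control against 0 h and 7.03% upon depletion. The 7 tested genes with the stem-loop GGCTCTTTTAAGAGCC had medians of -0.69 and -0.89 in these comparisons, and the 28 with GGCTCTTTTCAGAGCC had medians of -0.62 and -0.94.

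Genes with an annotated spliced transcript in GENCODE release 44, which are 17 of the 73, had 10 tested members. Their summed level was 2197 and 2121 CPM at 0 h, 1318 and 1392 CPM in control and 752 and 738 CPM in CTCF-depleted libraries, and their share of all histone CPM was 16.4%, 17.5% and 18.1%. Of the 10, 8 were lower in control against 0 h and 8 upon CTCF depletion, beside 22.9% and 7.03% of all genes tested. Differences between these groups of genes were not tested.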
